A study of Mus musculus with 2 samples.

Results

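A small population of GABAergic cells that express *Adarb2* was present in single cell RNA sequencing (scRNA-seq) libraries made from embryonic mouse brain tissue at E14.5. These cells are described here. Cells were chosen by raw counts of captured transcripts, read from unique molecular identifiers (UMIs). Barcodes were kept if they had between 1500 and 60000 UMIs with less than 10% of them mitochondrial, and a kept barcode was taken when *Gad1*, *Gad2* and *Dlx6os1* together had at least 3 UMIs, *Lhx6* and *Nxph1* together at most 1, *Adarb2* at least 3, and *Neurod2* and *Neurod6* together at most 2. This rule found 178 of 5453 kept barcodes in replicate 1 and 27 of 7483 in replicate 3, or 205 of 12936 in all. The 8 genes of the rule chose the cells and are no result.

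Both samples carried the genotype label WT and came from control embryos of a line that the series names EomesMllt3. The labels give brain hemispheres as the source, whereas the study's methods give dissected dorsal telencephalon of C57BL/6J mice. The 2 libraries formed 1 group and no condition was compared. The study's methods state that samples were loaded independently, but how embryos were assigned to these libraries is not given in the sources used here, so p-values measure the spread between these 2 libraries, which may be technical.

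GABAergic interneurons of the cortex are not born in the cortex. They arise in the ganglionic eminences of the ventral telencephalon and migrate into the dorsal telencephalon during embryonic development. The medial ganglionic eminence (MGE) yields interneurons that depend on the transcription factor Lhx6, among them the later SST+ cells. The caudal ganglionic eminence (CGE) yields interneurons marked by Nr2f2, Prox1 and Sp8, and *Adarb2* is widely used to mark them in the mature cortex. The lateral ganglionic eminence (LGE) mainly yields striatal projection neurons and olfactory bulb interneurons and is marked by Meis2, Foxp1, Foxp2, Isl1 and Ebf1. *Adarb2* encodes a protein of the RNA-editing adenosine deaminase family for which no editing activity is known. The gene lies on chr13:8202526-8768762 (mouse GRCm38.p6, protein coding).

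The *Adarb2*+ GABAergic cells were far less frequent in replicate 3 than in replicate 1. They made up 3.26% (95% Wilson interval 2.82 to 3.77) of kept barcodes in replicate 1 and 0.361% (0.248 to 0.524) in replicate 3. The mean was 1.81% ± 2.05 (SD, n = 2), and the intervals, which cover counting error only, were apart. Of all GABAergic barcodes, 25.04% (21.99 to 28.3) in replicate 1 and 10.6% (7.41 to 15.0) in replicate 3 belonged to the population. MGE-like cells, taken by at least 3 UMIs of *Lhx6* and *Nxph1* and at most 2 of *Adarb2*, formed 45.3% and 80.3% of GABAergic barcodes. All GABAergic barcodes numbered 711 of 5453 kept barcodes in replicate 1 and 254 of 7483 in replicate 3. MGE-like cells numbered 322 and 204, so they too were a smaller part of kept barcodes in replicate 3. The projection neuron-like cells used as a further reference had at least 3 UMIs of *Neurod2* and *Neurod6* and at most 1 of the GABAergic genes, and numbered 3206 and 4286.

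**Figure D1:**
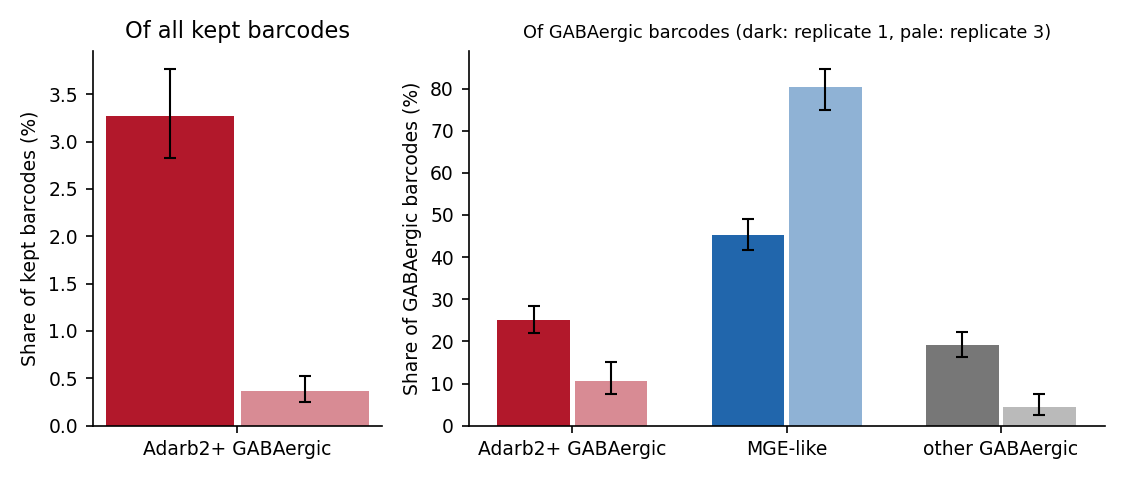
Share of barcodes in each class, in percent, for replicate 1 (dark bars) and replicate 3 (pale bars), with 95% Wilson intervals that cover counting error only. *Adarb2*+ GABAergic cells were 3.26% and 0.361% of kept barcodes. Of GABAergic barcodes (711 and 254) they were 25.04% and 10.6%, and MGE-like cells were 45.3% and 80.3%.

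Per cell, the population had a median UMI count of 5076.5 in replicate 1 and 4740.0 in replicate 3, with 2224.5 and 2078 genes detected. Summed over cells this gave 1110912 and 148474 UMIs, so that values of replicate 3 rest on few cells and carry more counting error. MGE-like cells had similar medians of 4804 and 4312.5 UMIs, whereas projection neuron-like cells had 11674 and 11385 UMIs. The median mitochondrial share was 4.44% and 5.60%, against 2.94% and 3.37% in projection neuron-like cells. Doublet scores put 1 member of replicate 1 (0.562%) and 4 of replicate 3 (14.8%) among the flagged barcodes. Of all kept barcodes, 4.93% and 7.10% were flagged. The libraries shared 23 barcode sequences, of which 0 were members.

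*Adarb2* itself, which chose the cells, ranged from 3 to 282 UMIs per cell in replicate 1 (median 17.5) and from 4 to 105 in replicate 3 (median 42). At the threshold, 7 members of replicate 1 held exactly 3 *Adarb2* UMIs, and 18 barcodes that met every other criterion held exactly 2. The members just inside had 183 CPM of *Nr2f2*, 3792 of *Meis2* and 1081 of *Pbx3*, and the barcodes just outside had 29.3, 3371 and 1212 CPM. *Sp8* and *Erbb4* were lower inside than outside, with 40.8 against 97.7 CPM and 61.2 against 704 CPM. The inside levels rest on 2 *Sp8* and 3 *Erbb4* UMIs. The 8 members of replicate 1 with exactly 4 *Adarb2* UMIs had 5148 CPM of *Erbb4* and 45.6 CPM of *Sp8*, so the contrast for *Erbb4* did not hold there. Here CPM is a gene's UMIs scaled to a fixed total of the summed UMIs of a class in a library. In replicate 3, 0 members held exactly 3 and 1 barcode held 2. *Adarb2* was not restricted to the population. Of all kept barcodes with at least 3 *Adarb2* UMIs, the members made up 36.6% in replicate 1 and 11.02% in replicate 3, and 6.49% and 4.04% of projection neuron-like cells reached 3 UMIs.

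The label of CGE-like interneurons was borne out only in part, since the cells carried markers of both the CGE and the LGE. *Nr2f2* encodes COUP-TFII, a nuclear receptor of CGE-derived cells, and stood at 149 and 242 CPM in replicates 1 and 3, against 55.3 and 24.4 CPM in MGE-like cells. *Prox1*, a homeobox gene of CGE-derived interneurons, stood at 81.0 and 20.2 CPM against 13.6 and 6.72. *Sp8*, a zinc finger gene of the CGE and the dorsal LGE, stood at 97.2 and 60.6 CPM against 8.67 and 5.04. All 3 genes were higher in the population than in MGE-like cells of both libraries. *Vip*, a later marker of CGE-derived interneurons, had 0 UMIs in every class.

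Each of these markers was counted in a minority of members. *Nr2f2* UMIs were present in 58 of 178 members of replicate 1 (32.6%, 26.1 to 39.8) and 11 of 27 of replicate 3 (40.7%, 24.5 to 59.3). At an equal depth of 1500 UMIs per cell the expected shares were 17.3% and 24.9%, against 5.86% and 3.99% in projection neuron-like cells, which give the level of free RNA or of expression outside GABAergic cells. The expected share for *Prox1* was 9.54% and 3.47%, against 0.462% and 0.835%. For *Sp8* it was 14.1% and 12.2%, against 0.180% and 0.436%. The shares in the population exceeded those in projection neuron-like cells in both libraries. Other GABAergic cells had 0 *Adarb2* UMIs and at most 1 of *Lhx6* and *Nxph1*, and numbered 136 and 11. In them *Prox1* reached a similar or higher share of 9.77% and 13.6%, whereas *Nr2f2* was at 9.25% and 1.92% and *Sp8* at 9.24% and 3.93%. Of the 11 cells of replicate 3, 3 had a *Prox1* UMI at full depth (Wilson interval 9.75% to 56.6%), 1 an *Nr2f2* UMI and 2 an *Sp8* UMI. A UMI of *Nr2f2* or *Prox1* was found in 39.9% and 44.4% of members at full depth.

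LGE markers were also present, and their spread among the members differed between the libraries. *Meis2*, a TALE homeobox gene, stood at 3488 CPM in replicate 1 and 1657 in replicate 3, against 164 and 381 CPM in MGE-like cells. It was not specific to GABAergic cells here, with 1558 and 1407 CPM in projection neuron-like cells. *Pbx3*, which encodes a partner of Meis proteins, stood at 2394 and 1650.1 CPM, against 77.5 and 39.5 in the MGE-like class and 81.5 and 55.7 in the projection neuron-like class. *Foxp2*, a forkhead gene expressed in the striatum, stood at 1736 and 539 CPM against 55.8 and 89.1 in MGE-like cells. In replicate 3, 39 of the 80 *Foxp2* UMIs of the members lay in 1 cell. *Pbx3* was therefore high in both libraries and against both classes. At 1500 UMIs per cell the expected share of members with a *Pbx3* UMI was 66.6% and 60.7%, against 8.15% and 6.27% in projection neuron-like cells. For *Tshz1*, a zinc finger gene of the dorsal LGE, it was 25.9% and 31.6%, against 3.75% and 4.61%. *Meis2* reached 67.8% and 32.4% of members but 75.05% and 76.0% of projection neuron-like cells, and *Foxp2* 45.4% and 16.9% against 28.7% and 37.1%. In replicate 3 both genes were thus below the share in projection neuron-like cells, and *Isl1* and *Ebf1* had 0 UMIs. Other GABAergic cells also carried these markers. The shares there were 39.2% and 33.3% for *Pbx3*, 79.2% and 28.6% for *Meis2*, 25.7% and 27.2% for *Foxp2* and 10.4% and 9.45% for *Tshz1*. Those of replicate 3 rest on 11 cells. *Reln*, on the CGE list, reached 16.4% and 38.2% of members, against 3.67% and 3.97% of projection neuron-like cells. In MGE-like cells it was at 23.0% and 29.3%, so it was not higher in members of both libraries. *Npas1*, also on that list, reached 5.50% and 8.80% of members and 7.23% and 9.13% of MGE-like cells. *Htr3a* ran the other way, with 1.51% and 7.46% against 0.309% and 0.247%.

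Within cells, *Nr2f2* and *Meis2* tended to be counted in different members. Spearman's rho between them was -0.46 over 178 cells of replicate 1 and -0.50 over 27 cells of replicate 3. *Meis2* and *Pbx3* had a rho of 0.52 and 0.74, and *Nr2f2* and its relative *Nr2f1* one of 0.52 and 0.41. These values describe sparse counts of cells that share a library and differ in depth.

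**Figure D2:**
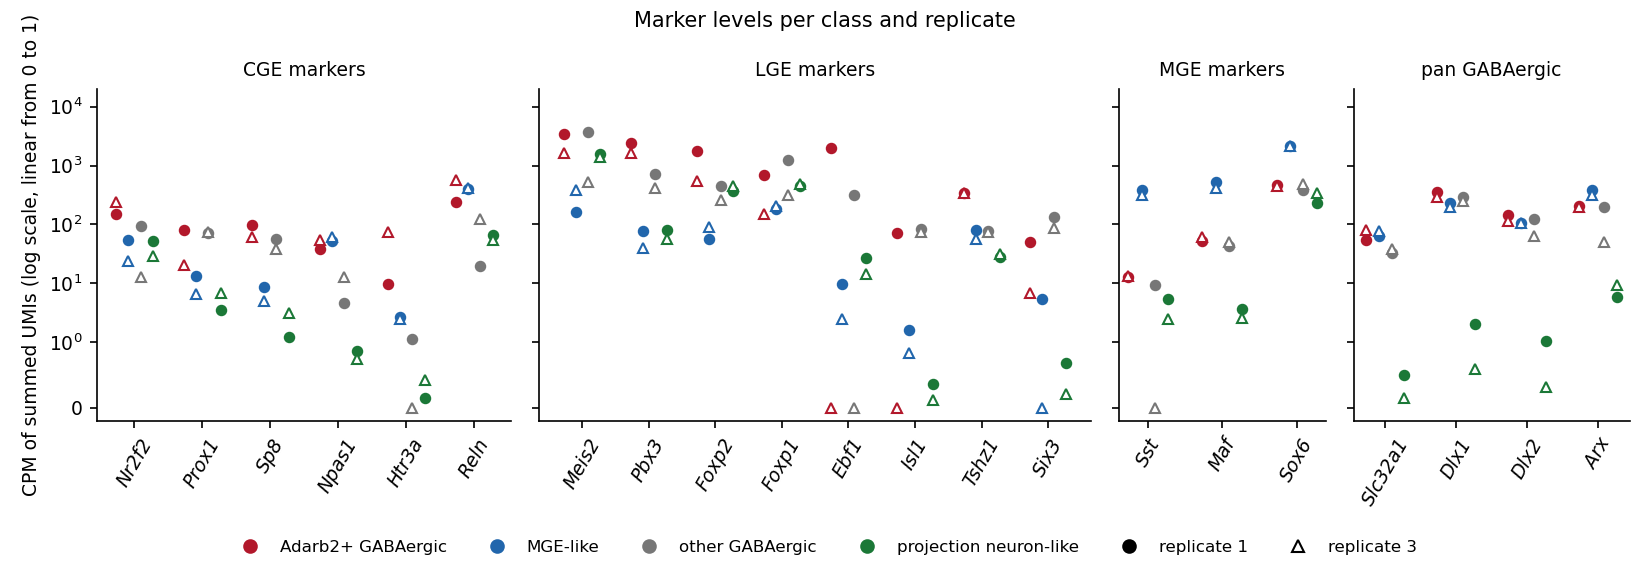
CPM of summed UMIs (log axis, linear from 0 to 1) of CGE, LGE, MGE and pan GABAergic markers in the 4 classes, with circles for replicate 1 and open triangles for replicate 3. In *Adarb2*+ GABAergic cells *Pbx3* and *Sp8* lie above the MGE-like cells in both replicates, while *Ebf1* and *Isl1* are at 0 in replicate 3.

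A part of the members in replicate 1 had a profile that differed from that of the other members. *Ebf1*, which encodes an early B cell factor of differentiating striatal neurons, had 1967 CPM in replicate 1 and 0 UMIs in replicate 3, where 0 of 27 cells allows a share of cells with an *Ebf1* UMI of up to 12.5% (Wilson), which does not bound the share of cells that express it. In replicate 1, 26 members with at least 3 *Ebf1* UMIs held 99.8% of its UMIs. *Isl1*, a LIM homeobox gene of striatal projection neurons, had 440.0 CPM in these 26 cells and 1.10 CPM in the 149 members without *Ebf1*. *Rarb*, a retinoic acid receptor gene of the striatum, had 1667 against 8.84 CPM, *Foxp1* 3157 against 215 CPM and *Bcl11b* 2195 against 483 CPM. Of the CGE markers, *Sp8*, *Prox1*, *Npas1* and *Htr3a* had 0 UMIs in the 26 cells, while *Nr2f2* had 49.5 CPM and *Reln* 55.0 CPM, against 168 and 279.5 CPM in the 149 members. *Ebf1* and *Isl1* were not particular to the members. Of other GABAergic cells of replicate 1, 6.62% had an *Ebf1* UMI and 10.3% an *Isl1* UMI at full depth, against 16.3% and 11.8% of members.

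The receptor tyrosine kinase gene *Erbb4*, which migrating interneurons use to sense neuregulins, separated the same cells in the other direction. It stood at 44.0 CPM in the 26 cells, at 7164 CPM in members of replicate 1 without *Ebf1* and at 12002 CPM in replicate 3. *Npas3* likewise stood at 44.0, 2478 and 3919.9 CPM, and *Tcf4* at 187, 2593 and 3597 CPM. Their *Adarb2* level was 2041 CPM against 6725 and 7543 CPM. Members of replicate 1 without *Ebf1* thus lay closer to those of replicate 3 for each of these 3 genes. The cells were grouped by a measured gene after its values were seen, so these levels are a description with no test.

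**Figure D3:**
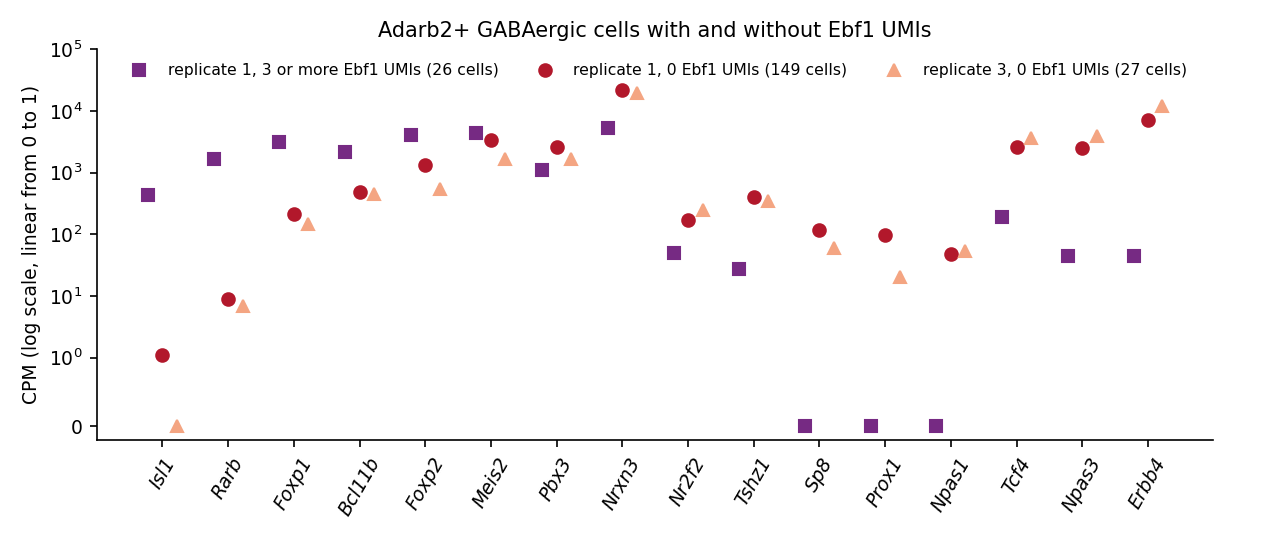
CPM (log axis, linear from 0 to 1) in 26 members of replicate 1 with 3 or more *Ebf1* UMIs (squares), 149 members of replicate 1 with 0 (circles) and 27 members of replicate 3 with 0 (triangles). *Isl1*, *Rarb* and *Foxp1* are highest and *Erbb4*, *Npas3* and *Tcf4* lowest in the cells with *Ebf1*.

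Members also differed along their *Adarb2* count. They were put into cells with 3 to 10, 11 to 50 and 51 or more *Adarb2* UMIs, which held 62, 71 and 45 cells of replicate 1 and 6, 12 and 9 cells of replicate 3. *Erbb4* rose along these bins in level, from 2314 to 3829 to 12997 CPM in replicate 1 and from 4135 to 11315 to 18308 CPM in replicate 3. *Npas1*, a bHLH gene of CGE- and MGE-derived interneurons, went from 2.77 to 9.03 to 124 CPM and from 0 to 35.1 to 112 CPM. *Reln*, which encodes the secreted glycoprotein Reelin, went from 41.6 to 90.3 to 676 CPM and from 263 to 387 to 989 CPM. *Meis2* ran the other way, from 4117 to 3893 to 2169 CPM and from 2423 to 1599 to 1176 CPM. These 4 genes were picked after their values were seen, and since *Adarb2* was in the rule the bins are a description only. Other genes held no such order. *Foxp2* stood at 1587, 2111 and 1372 CPM in replicate 1 and at 1001, 17.6 and 765 CPM in replicate 3. These replicate 3 levels rest on 38, 1 and 41 UMIs, of which 39 lay in 1 cell. *Prox1* stood at 80.4, 101.6 and 52.0 CPM and at 0, 35.1 and 18.7 CPM. The median UMI count per cell was 4500.0, 4970.0 and 5563 in replicate 1 and 3999, 3941 and 5443 in replicate 3, and its part in the pattern was not tested.

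The topoisomerase gene *Top2a*, a marker of cycling cells, stood at 488, 97.1 and 3.25 CPM along the bins in replicate 1 and was near 0 in replicate 3, with 0, 17.6 and 0 CPM. At least 10 UMIs of the 10 cycling genes were found in 16 members of replicate 1 (8.99%) and 1 of replicate 3 (3.70%). Most members, 68.5% and 66.7%, had 0 UMIs of these genes.

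**Figure D4:**
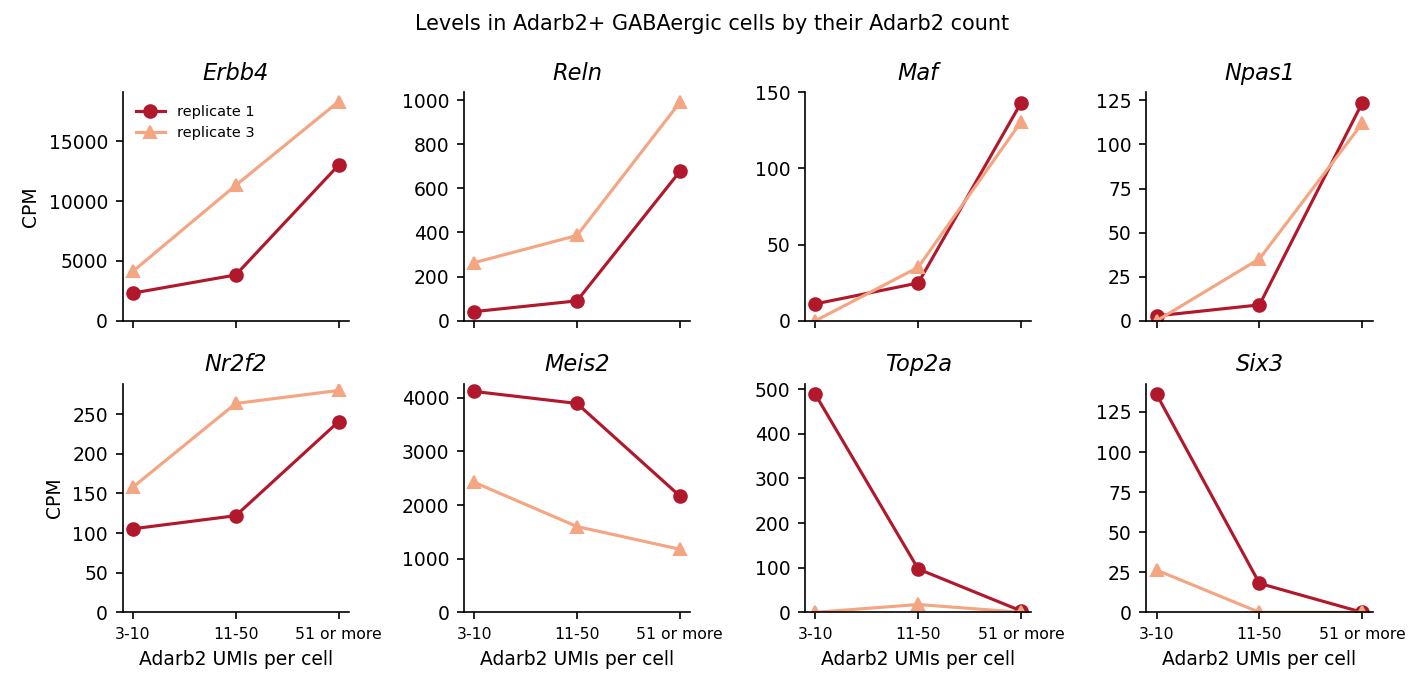
CPM of 8 genes in *Adarb2*+ GABAergic cells grouped by their *Adarb2* UMIs per cell (3-10, 11-50, 51 or more) in replicate 1 (circles) and replicate 3 (triangles). *Erbb4*, *Reln*, *Maf* and *Npas1* are highest in the cells with 51 or more, and *Meis2* is highest in those with 3-10.

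The population was then compared with 3 other classes of the same libraries. UMIs were summed per class and replicate, and the sums entered the quasi-likelihood test of edgeR over 10663 genes with Benjamini-Hochberg adjustment. Levels are CPM, and fold changes are log2 of the population over the other class ± SE with n = 2 sums per class.

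Against MGE-like cells (322 and 204 cells), 76 genes were higher (0.713% of all genes tested) and 83 lower (0.778%), together 1.49%, and 157 of these 159 had the same direction in both replicates. The receptor genes *Nr3c2* and *Rxrg*, the homeobox gene *Pbx3* and the sorting receptor gene *Sorcs3* were among the genes with the largest increase. *Nr3c2*, the mineralocorticoid receptor gene (chr8:76898083-77245012, GRCm38.p6), had 150.3 and 189 CPM against 1.08 and 2.52 CPM, a log2 fold change of 6.40 ± 0.545 (edgeR adjusted p = 0.00119). Of its UMIs in replicate 3, 71.4% came from 1 of 3 cells. *Rxrg*, a retinoid X receptor gene of the striatum, had 36.01 and 40.4 CPM against 0 and 0.840 CPM, and 35 of its UMIs in replicate 1 lay in the 26 cells with *Ebf1* and 5 in the 149 without. *Sorcs3* had 412 and 680.3 CPM against 7.05 and 11.8 CPM. *Pbx3* changed by 5.01 ± 0.481 (edgeR adjusted p = 0.00163), with counts in 141 and 22 cells. *Zfhx3*, a zinc finger homeobox gene, changed by 4.58 ± 0.427, with 271 and 216 CPM against 11.4 and 7.56 CPM. *Inpp4b*, *Grin2a*, *Egfem1*, *Slc4a4* and *C79798* completed the 10, and 100% of the *Inpp4b* and 83.3% of the *Grin2a* UMIs of replicate 3 lay in 1 cell each.

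Genes lower than in MGE-like cells included many that MGE-derived interneurons are known to express. *Sst*, which encodes somatostatin, had 12.6 and 13.5 CPM against 378 and 319 CPM, a log2 fold change of -4.83 ± 0.504 (edgeR adjusted p = 0.00229). *Nxph2*, a neurexophilin gene, had 0 UMIs in the population and 282 and 413 CPM in MGE-like cells, which is at least 140-fold lower when 3 counts over both sums are taken as the floor. *Prkcq*, a protein kinase C gene, also had 0 UMIs and was at least 9.96-fold lower. *Dpp10*, an auxiliary subunit of Kv4 potassium channels, had 138 and 60.6 CPM against 2539.7 and 2782 CPM. *Thbs1*, *Mkx* and *Cacng3* were lower as well, by 6.31, 4.83 and 4.67 on the log2 scale. *Hba-a1*, *Hba-a2* and *Hbb-bt*, which encode haemoglobin chains of red blood cells, were also called. In MGE-like cells 2 barcodes of replicate 1 and 1 of replicate 3 held 97.1% and 91.9% of the haemoglobin UMIs. Without these barcodes the haemoglobin level was 259 and 894 CPM, against 228 and 909 CPM in the population.

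By list, 4 of 10 tested LGE markers rose against MGE-like cells (*Isl1*, *Foxp2*, *Tshz1* and *Pbx3*) and 0 fell, with a median log2 fold change of 3.77 against -0.01 over all genes. *Isl1* had 0 UMIs in replicate 3, where 1 cell held 48.8% of the *Foxp2* UMIs. *Tshz1* had 339 and 343 CPM against 81.9 and 56.3 CPM. Of 7 tested CGE markers, *Sp8* alone rose and 0 fell, with a median of 2.02. *Nr2f2* had a log2 fold change of 2.02 ± 0.518 (edgeR adjusted p = 0.121) and *Prox1* one of 2.58 ± 0.562 (edgeR adjusted p = 0.0680), so neither passed the threshold. Of 8 tested MGE markers 4 fell, with *Sst*, *Maf* and *Sox6* among them. None of 12 pan GABAergic genes was called. *Slc32a1*, the vesicular GABA transporter gene, had 54.0 and 80.8 CPM against 64.5 and 78.1 CPM.

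Most genes of signalling and excitability were not called, and those called are set against the 1.49% called over all genes. Of 28 tested ionotropic receptor subunits, *Grin2a* and *Chrna7* rose and *Gria1*, *Gria4*, *Grik1* and *Glra2* fell, and 22 were not called. *Gria1*, an AMPA receptor subunit gene, had 429 and 431 CPM against 3450.4 and 3181 CPM. *Gria4*, another AMPA receptor subunit gene, had 387 and 532 CPM against 3077 and 2940.3 CPM. Of 35 voltage-gated channel genes, 2 rose, 4 fell and 29 were not called, and *Kcnc2*, which encodes Kv3.2, had 126 and 155 CPM against 603 and 407 CPM. Of 40 migration and guidance receptors, *Ephb1* and *Slit1* rose, *Ackr3* fell and 37 were not called. *Ackr3*, the scavenging receptor for Cxcl12, had 14.4 and 20.2 CPM against 305 and 301 CPM. Among 47 synaptic adhesion genes, *Ntng1* and *Sdk2* rose, *Pcdh17* fell and 44 were not called. Among 17 genes of RNA editing and its known targets 0 rose and 2 fell, which were *Grik1* and *Gria4*. *Adar* and *Adarb1*, which encode the active editing enzymes, had log2 fold changes of -0.11 ± 0.229 and -0.50 ± 0.326 and were not called.

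The calls against MGE-like cells rested on replicate 1 of the population. Without its sum, 8 genes were called and 4 of the 20 genes with the largest changes kept their call, whereas without the sum of replicate 3 there were 148 calls and 18 of 20 kept it. Removing doublets gave 468 calls, and a mitochondrial maximum of 5% gave 73.

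**Figure D5:**
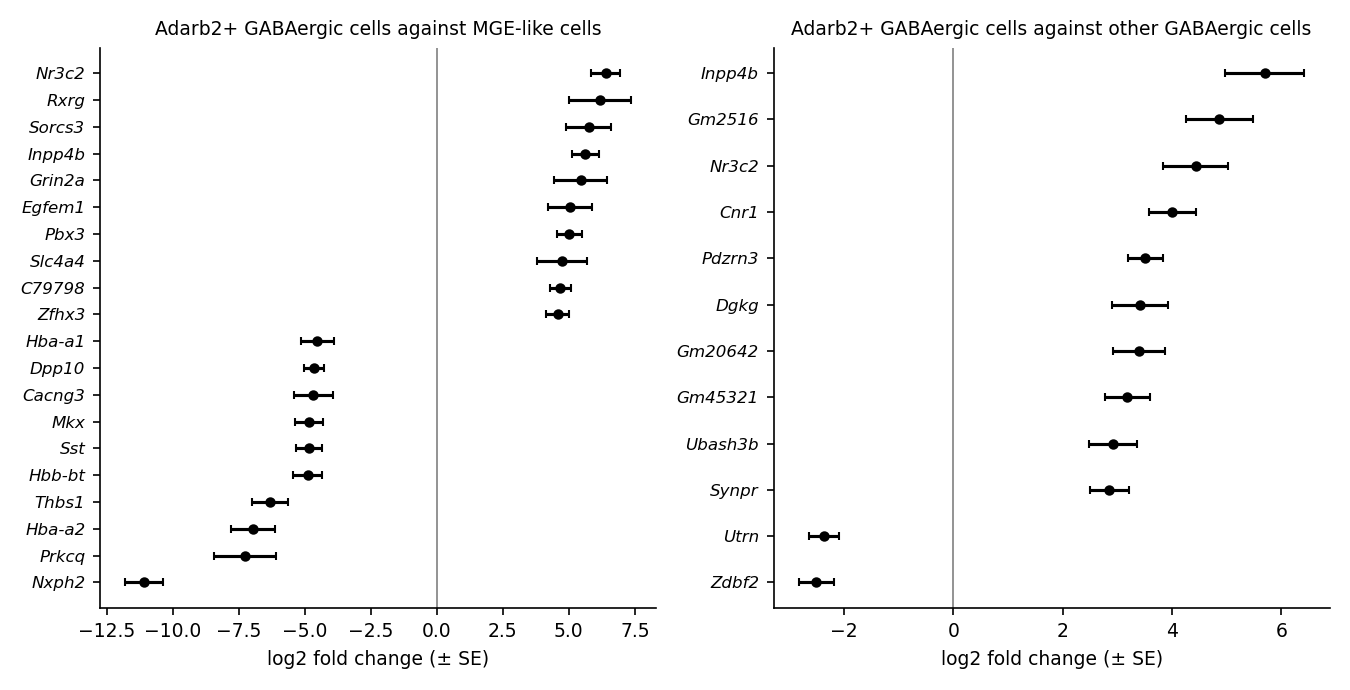
Log2 fold changes with SE (n = 2 sums per class) of the genes with the largest changes among those called, in *Adarb2*+ GABAergic cells against MGE-like cells (left) and other GABAergic cells (right). *Nr3c2* and *Inpp4b* are far above 0 in both panels, and *Nxph2*, with 0 UMIs in the population, is lowest on the left.

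Of the 3 classes, other GABAergic cells (136 and 11 cells) gave the fewest calls. Their sum of replicate 3 held 79221 UMIs. An unadjusted edgeR p under 0.05 was found for 1131 genes, against 1179 for MGE-like cells. The number of calls therefore does not measure how alike the classes were. Against other GABAergic cells 17 genes were higher (0.159% of all genes tested) and 2 lower (0.0188%), together 0.178%. All 19 had the same direction in both replicates. *Pdzrn3*, a ubiquitin ligase gene, had 304 and 451 CPM against 31.1 and 50.5 CPM, a log2 fold change of 3.51 ± 0.322 (edgeR adjusted p = 0.0175). *Cnr1*, the cannabinoid receptor gene of many later CGE-derived interneurons, had 128 CPM in both replicates against 9.21 and 0 CPM, a change of 4.003 ± 0.433 (edgeR adjusted p = 0.0263), with counts in 55 and 11 cells. *Nr3c2* and *Inpp4b* were higher here too, with 3.45 and 50.5 CPM and 1.15 and 0 CPM in the other GABAergic cells. *Synpr*, which encodes the synaptic vesicle protein synaptoporin, had 192 and 121 CPM against 20.7 and 63.1 CPM. *Dgkg*, *Ubash3b*, *Gm2516*, *Gm20642* and *Gm45321* completed the 10 higher genes. *Zdbf2* and *Utrn*, the utrophin gene, were lower, by 2.51 and 2.37 on the log2 scale. Of the lists, *Tshz1* rose among 10 LGE markers, *Chrna7* among 28 ionotropic receptor subunits, and 0 of 7 CGE markers was called. DESeq2 called 87 genes but 2 of these 12, a mitochondrial maximum of 5% left 1 call, and with the replicate as a block 35 genes were called. Without the 11-cell sum 17 genes were called, and without the population's sum of replicate 1 or 3 the counts were 14 and 9.

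Against projection neuron-like cells (3206 and 4286 cells) 715 genes were higher (6.71% of all genes tested) and 609 lower (5.71%), together 12.4%, and 1262 of the 1324 had the same direction in both replicates. All 12 pan GABAergic genes rose, with a median log2 fold change of 6.47. Both classes were chosen on GABAergic genes, so this direction was set by the choice of cells and is no independent result. *Dlx1*, a homeobox gene of ventral progenitors and their neurons, had 350.2 and 296 CPM against 2.02 and 0.594 CPM. *Erbb4* had 5875 and 12002 CPM against 5.48 and 12.3 CPM, a change of 9.86 ± 0.649 (edgeR adjusted p = 3.96e-05). *Nrxn3*, a neurexin gene, had 18934 and 19653 CPM against 31.9 and 21.3 CPM. *Gm38505*, *Sox2ot*, *Dlx2*, *Gm14204*, *Ptchd4*, *B020031H02Rik* and *Gm45321* were the other genes with the largest increases. Of 7 tested CGE markers 6 rose (*Nr2f2*, *Prox1*, *Sp8*, *Npas1*, *Htr3a* and *Reln*), and *Nr2f2* did so by 2.04 ± 0.470 (edgeR adjusted p = 0.0245). Of 10 LGE markers 7 rose, while *Meis2*, *Foxp1* and *Foxp2* were not called. Of the 7, *Isl1*, *Ebf1* and *Zfp503* had 0 UMIs in replicate 3 and *Six3* had 1, so these calls rest on replicate 1.

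Genes of the projection neuron lineage were lower. Both classes were also chosen on *Neurod2* and *Neurod6*, so this direction too was set by the choice of cells. Of 9 projection neuron markers 7 fell. *Emx1*, a homeobox gene of the dorsal telencephalon, had 0.900 and 6.74 CPM against 75.6 and 99.4 CPM. *Gm41414*, with 0 UMIs in the population, was at least 9.78-fold lower. *Bmpr1b*, *Abcc8*, *Ccbe1*, *Sstr2*, *Nos1*, *Lmo7* and *Chst8* were also among the 10 lower genes, each with at most 7 CPM in either sum of the population. Of 28 ionotropic receptor subunits 12 rose and 1 fell. Of 35 voltage-gated channel genes 10 rose and 3 fell, among them *Cacna2d3* with 598 and 1401 CPM against 57.1 and 71.6 CPM. Among 40 migration and guidance receptors 5 rose, including *Cxcr4*, the Cxcl12 receptor gene, and 5 fell, including *Dcc*. Of 51 tested transcription factors of interneurons 24 rose and 4 fell. Without the population's sum of replicate 1 the test called 144 genes, and without that of replicate 3 it called 835.

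Markers of some other cell types were also counted in the population. The complement genes *C1qa* and *C1qb* of microglia and *Rgs5* of pericytes were called higher than in projection neuron-like cells, but 99.0%, 98.8% and 100% of their UMIs in replicate 1 lay in 1 cell each. Summed CPM of 4 microglia markers was 181 and 6.74, and that of 4 pericyte markers 91.8 and 0, against 3.98 to 12.7 for both lists in projection neuron-like cells. Summed over the 9 radial glia markers, members had 530.2 and 1629.9 CPM, and the projection neuron-like class had 461 and 673. The sum of replicate 3 came from 242 UMIs. There 92.7% of the *Fabp7* UMIs lay in 1 cell, as did 80.6% of the *Vim* UMIs in 1 cell. The higher sum in replicate 3 therefore does not show radial glia expression across its members. Of the 9 genes *Sox2* alone was called. This progenitor gene had 221 and 209 CPM against 18.5 and 28.5 CPM, with UMIs in 94 and 16 members, and its part in the other results was not tested. *Sox2* lies within the span of *Sox2ot*, which was also called higher, so their counts may share reads. Of 8 Cajal-Retzius markers 6 were tested, with a median log2 fold change of 1.35, and *Reln*, which is on this list and on the CGE list, was called higher. The defining markers *Trp73* and *Lhx1* had 0 UMIs in both replicates.

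Finally, the members were split by *Nr2f2* and *Prox1* UMIs after each cell had been thinned to 1500 UMIs. With the chosen random draw, 40 of 178 and 12 of 27 members had at least 1 such UMI, and 7 of 3497 genes (0.200%) were lower in them, among them *Lingo2*, *Epha6*, *Pcdh7*, *Unc5c* and *Zfp385b*, while 0 were higher. The calls depended on the draw and on the fit. With each of 5 other draws, which put 39 to 47 and 4 to 9 members in the part with a UMI, edgeR called 0 genes, and from 165 to 222 genes had an unadjusted p under 0.05. A split on unthinned UMIs (71 and 12 members) gave 2 calls, removing doublets gave 0, and DESeq2 gave 9 and a replicate block 109 on the chosen draw. With the replicate block the 5 other draws gave 13, 0, 13, 60 and 0 calls, and all 5 genes named above were among them in each of the 3 draws with calls. The unthinned split gave 6 calls with the block. In the fits with a test the fold changes of these 5 genes kept their direction, but whether they were called differed between draws.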

How the data were processed

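ScRNA-seq counts of 2 WT libraries (replicates 1 and 3, after their labels) were analysed. The deposited values were UMI counts per gene and barcode, which the authors made from 10x Genomics libraries of the 3' kind, per the submitters' processing notes with Cell Ranger 7.0.0. The same notes name mm10, and the annotation and intron setting are not given in the sources used here. The lowest barcode had 502 and 500 UMIs. Library totals were 64182006 and 93295807 UMIs over 6163 and 8870 barcodes. The members and gene lists were chosen with earlier results of these data known.

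Classes were drawn on raw UMIs, and UMIs were summed per class and replicate (4 classes, 8 sums in 1 fit). MGE-like cells had at least 3 *Gad1*, *Gad2* and *Dlx6os1* UMIs and projection neuron-like cells at least 3 *Neurod2* and *Neurod6* UMIs and at most 1 of the former. Tests used edgeR 4.0.16 in R 4.3.3 (TMM, filterByExpr, prior count 2, threshold 0.05), with DESeq2 1.42.0 as an alternative, and the SE was taken as the size of the log2 fold change divided by the root of the F statistic. The 8 genes of the rule stayed in the library sizes and were not tested (nor *Nr2f2* and *Prox1* in the split). Named were, among called genes with both replicates in 1 direction and at least 20 CPM in the higher class, the 10 highest and 10 lowest fold changes (5 and 5 for the split) and list members as examples. Some genes that this rule names are not reported here. *Dlx6os1* overlaps *Dlx6*, so their counts may share reads.

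Sums of 1 number come from 1 library, so replicate numbers pair them. The correlations of paired deviations between classes ran from 0.0438 to 0.284. Doublets were scored with Scrublet in scanpy 1.11.5 and removed, as an alternative only, at 0.8% per 1000 barcodes. Shares at 1500 UMIs are expected values over all possible draws, a change made after the data were seen from the share of 1 random draw. The split used 1 seeded draw per cell. This drawing scheme replaced an earlier one, under the same seed, that drew the same cell differently between settings, and with the earlier scheme the split had 0 calls. Further draws, with and without the block, were added after its calls were seen, and other alternatives chosen after seeing the data leave out single sums or haemoglobin-rich barcodes. On simulated counts for the MGE-like comparison (10671 genes), 13.4%, 68.7% and 77.3% of genes changed by 1, 2 and 3 on the log2 scale were recovered, with 0 wrong signs. For the comparison with other GABAergic cells 4.48%, 46.3% and 68.2% were recovered. Positions are from RefSeq, GRCm38.p6, with 397 of 401 genes matched.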

Additional observations from a re-analysis of the deposited data

How the results depend on the processing

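Counts of genes called depended on the processing. Against MGE-like cells (159 calls) they were 95 with a UMI minimum of 3000, 244 with cells thinned to 1500 UMIs, 468 without doublets, 73 with a mitochondrial maximum of 5%, 802 without a filter on low counts and 8 or 148 without the population's sum of replicate 1 or 3. Against other GABAergic cells (19 calls) they were 12 with an *Adarb2* minimum of 2, 87 with DESeq2, 51 thinned, 49 without doublets, 1 at 5% mitochondrial UMIs, 461 without the filter, 35 with the replicate block, 9 without the population's sum of replicate 3 and 17 without the other cells' sum of replicate 3. Against projection neuron-like cells (1324 calls) they were 788 with DESeq2, 698 at 5% mitochondrial UMIs, 2569 without the filter, and 144 and 835 without the population's sum of replicate 1 and 3. The split (7 calls) gave 1 with an *Adarb2* minimum of 5, 0 at 3000 UMIs, 4 thinned, 0 without doublets, 0 at 5% mitochondrial UMIs, 135 without the filter, 109 with the replicate block, 2 on unthinned UMIs (6 with the block) and 0 in each of 5 other draws (13, 0, 13, 60 and 0 with the block). The block gave 193 and 1183 calls for MGE-like and projection neuron-like cells, and all 57 fold changes of the named genes stayed called with it. In all alternatives with a test, 595 values of the named genes stayed on their side of the threshold and 159 lost it, with 0 changes of sign, and 35 of those lost were without the population's sum of replicate 1. From replicate 3 alone, with no test, 32 of the 57 moved by more than the spread between replicates, and from replicate 1 alone 4 did. At 3000 UMIs the expected mean share of cells with a UMI was 32.9% for *Nr2f2* (21.1% at 1500) and 68.8% for *Pbx3* (63.7%). The mean share of the population was 0.361% to 3.26% when 1 replicate was left out. Depth limits replicate 3 most, with 27 cells, and the cause of each shift was not tested.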
